A study of Mus musculus with 16 samples.

Results

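The genes described here encode the receptors for serotonin, acetylcholine, noradrenaline and adrenaline, dopamine, and histamine, measured by RNA sequencing in mouse cortex and thalamus. They were taken by name, as the protein-coding genes whose symbol starts with Htr, Chrm, Chrna, Chrnb, Adra, Adrb, Drd or Hrh followed by a digit. Of 49 such genes among the 21804 in the count table, 41 had a mean of 10 or more counts over the 16 libraries and were kept. These were 11 serotonin, 5 muscarinic, 10 nicotinic, 9 adrenergic, 3 dopamine and 3 histamine receptor genes. The 8 genes left out were Chrna1, Chrna9, Chrna10, Drd3, Drd4, Htr2b, Htr3b and Hrh4. Adrb3 lay just inside the minimum with a mean of 11.01 counts, and Chrna1 just outside it with 7.448.

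All mice were C57BL/6 and 4 months old, and all carried the Pdgfb retention allele, which lacks the stretch that keeps secreted PDGF-B, a growth factor for pericytes, close to blood vessels. The controls were Pdgfb ret/wt, with the allele on 1 chromosome, and the other group was Pdgfb ret/ret, with it on both; per the series' own description, vessel-associated calcifications form in the ret/ret thalamus and not in ret/ret cortex or in controls. Each of 8 animals, 4 per genotype, gave 1 cortex and 1 thalamus library, so there were 4 groups of 4 and every replicate was a separate mouse; the labels give no sex. In ret/ret thalamus the tissue taken was the calcifications themselves, located by their autofluorescence, whereas the control thalamus came from the matching site, so in thalamus the genotype and the choice of tissue cannot be told apart.

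As background, muscarinic, adrenergic, dopamine and histamine receptors, and all serotonin receptors but the Htr3 subunits, span the membrane and signal through G proteins. The nicotinic receptors and the Htr3 channel are instead assembled from subunits around an ion pore that opens when the transmitter binds. The transmitters come mostly from small groups of neurons in the brainstem, midbrain, hypothalamus and basal forebrain whose fibres reach both cortex and thalamus, so a region's response depends in part on which receptors its own cells make.

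The promoter sequences shown first are those of receptors called between regions in both genotypes, in fits that did not pair the libraries by animal. RefSeq (GRCm38.p6) gave a promoter, 250 bases before to 50 after the gene's start in RefSeq, for 30 of the 41 genes, and among the 6 genes called in both genotypes for Chrm4, Chrna3 and Drd2. They lie at chr2:91921939-91922238 on the plus strand, chr9:55026513-55026812 on the minus strand and chr9:49340153-49340452 on the plus strand. The RefSeq start of Chrna3 is the one in the GENCODE annotation used for gene coordinates below, whereas those of Chrm4 and Drd2 lie upstream of the GENCODE starts, so these windows do not cover the GENCODE starts. Each is written 5′ to 3′ along the gene's strand, and capitals mark GGGCGG or its reverse complement CCGCCC.
Chrm4: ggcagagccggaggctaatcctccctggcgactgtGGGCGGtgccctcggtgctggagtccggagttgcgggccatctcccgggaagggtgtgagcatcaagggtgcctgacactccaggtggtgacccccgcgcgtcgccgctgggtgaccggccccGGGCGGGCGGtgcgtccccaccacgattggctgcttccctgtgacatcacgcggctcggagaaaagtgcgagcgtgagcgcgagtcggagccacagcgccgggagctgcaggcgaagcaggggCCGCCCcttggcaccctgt
Chrna3: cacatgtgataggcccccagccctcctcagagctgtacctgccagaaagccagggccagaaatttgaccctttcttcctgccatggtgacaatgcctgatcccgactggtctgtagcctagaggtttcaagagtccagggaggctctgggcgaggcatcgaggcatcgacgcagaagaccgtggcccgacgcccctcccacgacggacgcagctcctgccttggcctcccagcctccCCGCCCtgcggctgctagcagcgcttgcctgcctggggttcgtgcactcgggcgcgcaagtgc
Drd2: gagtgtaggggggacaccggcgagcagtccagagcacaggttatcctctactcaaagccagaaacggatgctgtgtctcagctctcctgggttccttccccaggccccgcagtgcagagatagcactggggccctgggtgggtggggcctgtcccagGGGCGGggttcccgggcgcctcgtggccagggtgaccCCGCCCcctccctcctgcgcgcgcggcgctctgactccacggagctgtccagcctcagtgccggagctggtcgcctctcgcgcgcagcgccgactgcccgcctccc
The motif GGGCGG, counted on both strands, occurred 4 times in the Chrm4 promoter, where 2 copies overlap, 2 times in that of Drd2 and 1 time in that of Chrna3. It was present in 35.7% of all 32851 RefSeq promoters of 300 bases. TATAAA was in none of the 3 sequences and in 13.6% of all promoters, and CTTTGA was in the Drd2 sequence alone of the 3 and in 16% of all. The sequences had 70.7% (Chrm4), 64.3% (Chrna3) and 70.3% (Drd2) G or C bases. Chrm4, which is higher in cortex, and Drd2, which is higher in thalamus, thus share a GC-rich start with the same motif, and a match of letters is a description of the window only.

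Library totals ran from 13415391 to 29135064 counts, and 3 counts, the limit that a count of 0 allows, came to between 0.103 and 0.224 CPM, which are counts scaled to a fixed library total. Levels below are CPM normalized over all 16 libraries, given for replicates 1 to 4 in order, and they are compared between libraries and not between genes. Cortex and thalamus labels matched their markers: summed projection neuron markers were 796 to 2666 CPM in cortex against 121 to 449 in thalamus, and summed thalamus neuron markers 254 to 2569.9 CPM in thalamus against 57.4 to 115 in cortex. Several libraries nevertheless differed from the rest of their group in markers. The summed cerebellum markers were 4399.6 CPM in ret/ret cortex 2 and 1973 in ret/wt cortex 3, against at most 98 elsewhere. In ret/wt cortex 4 the summed hippocampus markers were 228 CPM, against at most 43 in the other cortex libraries, and the summed choroid plexus markers 1158 CPM, against at most 85.6 elsewhere. For ret/ret thalamus 4 the summed midbrain dopamine neuron markers were 1191 CPM and the raphe serotonin neuron markers 197 CPM, against at most 397 and 25.7 in the other thalamus libraries. Thalamus neuron markers reached 2407 CPM in ret/wt thalamus 3 and 2569.9 in ret/ret thalamus 2, against 254 to 769 in the other thalamus libraries. The mice of ret/wt thalamus 3 and ret/ret thalamus 2 also gave ret/wt cortex 3 and ret/ret cortex 2, which had the high cerebellum markers.

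Region was the difference that separated these receptors. In ret/wt animals 17 of 38 receptors tested (44.7%) passed an adjusted p of 0.05 between thalamus and cortex, where 12.6% of all 14442 genes tested did so. Of these, 7 were higher in thalamus (5.44% of all genes) and 10 were lower (7.12% of all genes). In ret/ret animals 9 of 39 (23.1%) passed, 4 higher and 5 lower, against 9.5% of all 14715 genes tested (4.1% higher, 5.4% lower). In both genotypes 6 receptors were called, each in the same direction: Chrm1, Chrm4, Adra1d and Htr3a were lower in thalamus, and Drd2 and Chrna3 were higher. They made up 35.3% of the ret/wt calls and 66.7% of the ret/ret calls. The median log2 difference over the receptors was -0.15 in ret/wt (0.03 over all genes) and 0.05 in ret/ret (-0.02 over all genes), so the family moved in both directions rather than as a block. In pieces of tissue, fewer cells that make a receptor and less of its RNA per cell cannot be told apart.

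The tests were made with edgeR on each genotype's own 8 libraries, with Benjamini-Hochberg adjustment over all genes. With the animal as a block, since cortex and thalamus of a number come from 1 mouse, 14 receptors were called in ret/wt and 9 in ret/ret. Of all genes, 1487 of 14442 were then called in ret/wt and 1177 of 14715 in ret/ret. With this block, Chrm1, Chrm4, Drd2, Chrm2 and Chrm3 were the receptors called in both genotypes. Adra1d, Htr3a and Chrna3 were then called in ret/wt alone. The genes whose call changed are named below. With counts scaled by library size alone, 7 were higher and 7 lower in ret/wt thalamus, and 5 higher and 4 lower in ret/ret thalamus. Over all genes this scaling gave 977 higher and 844 lower in ret/wt, and 688 higher and 718 lower in ret/ret. The ret/ret count was 3 without cortex 3, 3 without thalamus 4, 4 without cortex 4, 5 without thalamus 3 and 6 without thalamus 1, and 8 to 11 without each of the others. The calls over all genes fell with it, from 1398 to 627, 688, 759, 691 and 714 for those 5. They were 1125 without cortex 1, 2007 without cortex 2 and 1586 without thalamus 2. The ret/wt count was 10 without cortex 2, where the calls over all genes fell from 1813 to 1218.

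**Figure D1:**
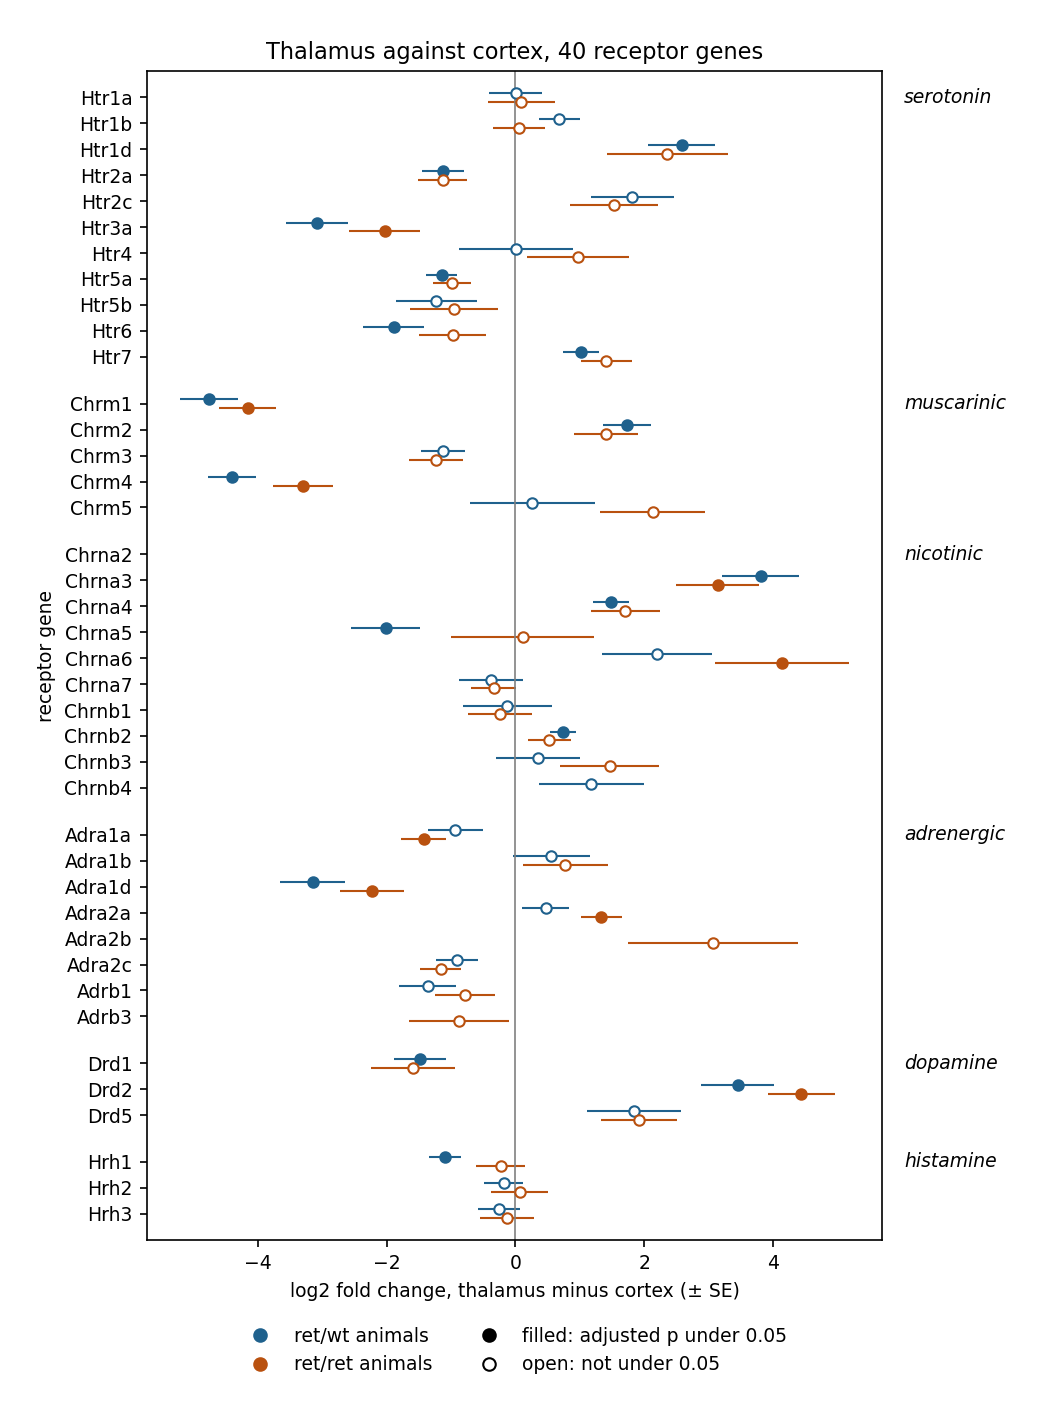
Thalamus minus cortex on the log2 scale (horizontal axis) for 40 receptor genes (vertical axis), with 1 standard error as the bar, in ret/wt and in ret/ret animals; filled points passed the adjusted p of 0.05, open points did not, and a gene without a point was not tested. Chrm1 and Chrm4 lie farthest to the left and Drd2 and Chrna3 far to the right in both genotypes.

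The muscarinic acetylcholine receptors gave the clearest contrast. Chrm1 and Chrm4 were low in thalamus, and Chrm2 was higher there in ret/wt. Chrm1 encodes the receptor that raises intracellular calcium through Gq proteins in cortical excitatory neurons; the gene lies on chromosome 19 from 8663789 to 8683587 (GRCm38, plus strand). Its levels were 257, 186, 154 and 252 CPM in ret/wt cortex and 7.38, 13.6, 2.63 and 7.69 CPM in ret/wt thalamus. In ret/ret they were 206, 51.6, 217 and 182 CPM in cortex and 9.40, 10.6, 10.3 and 6.39 CPM in thalamus. The groups did not overlap in either genotype, and the lowest cortex value was that of ret/ret cortex 2, the library with the highest cerebellum markers and the lowest projection neuron markers. The log2 difference was -4.75 ± 0.45 (SE; adjusted p = 0.000251) in ret/wt and -4.16 ± 0.44 (adjusted p = 0.00212) in ret/ret.

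Chrm4, whose Gi-coupled receptor lowers cyclic AMP, lies on chromosome 2 from 91927249 to 91928688 (plus strand). It was at 23.1, 26.5, 16 and 13.6 CPM in ret/wt cortex and at 0.604, 1.44, 0.837 and 0.840 CPM in ret/wt thalamus. In ret/ret, cortex had 8.79, 8.98, 13.8 and 15.1 CPM and thalamus 1.99, 0.671, 0.533 and 1.51 CPM. Every cortex library was above every thalamus library. The log2 difference was -4.39 ± 0.37 (adjusted p = 0.000128) in ret/wt, the smallest p of any receptor there, and -3.30 ± 0.46 (adjusted p = 0.00499) in ret/ret.

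Chrm2, the other Gi-coupled muscarinic receptor and an autoreceptor on many cholinergic terminals, ran the opposite way. It was at 18, 11.1, 19.96 and 7 CPM in ret/wt cortex and 70.03, 51.5, 35.6 and 27.7 CPM in ret/wt thalamus, without overlap (log2 difference 1.73 ± 0.37, adjusted p = 0.0132). In ret/ret the values were 6.17, 8.33, 29.8 and 17.7 CPM in cortex and 22.7, 31.6, 52.8 and 56.9 CPM in thalamus, where cortex 3 reached above the lowest thalamus library. The ret/ret difference of 1.40 ± 0.50 had an adjusted p of 0.107, and with the animal as a block, in which thalamus was higher in 4 of 4 mice, 0.0198. Chrm3, a further Gq-coupled receptor, missed the threshold in both genotypes (-1.13 ± 0.34, adjusted p = 0.0583, and -1.23 ± 0.42, adjusted p = 0.0973) and passed it in both with the animal as a block (0.0217 and 0.0204). Chrm5 did not pass in either genotype.

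**Figure D2:**
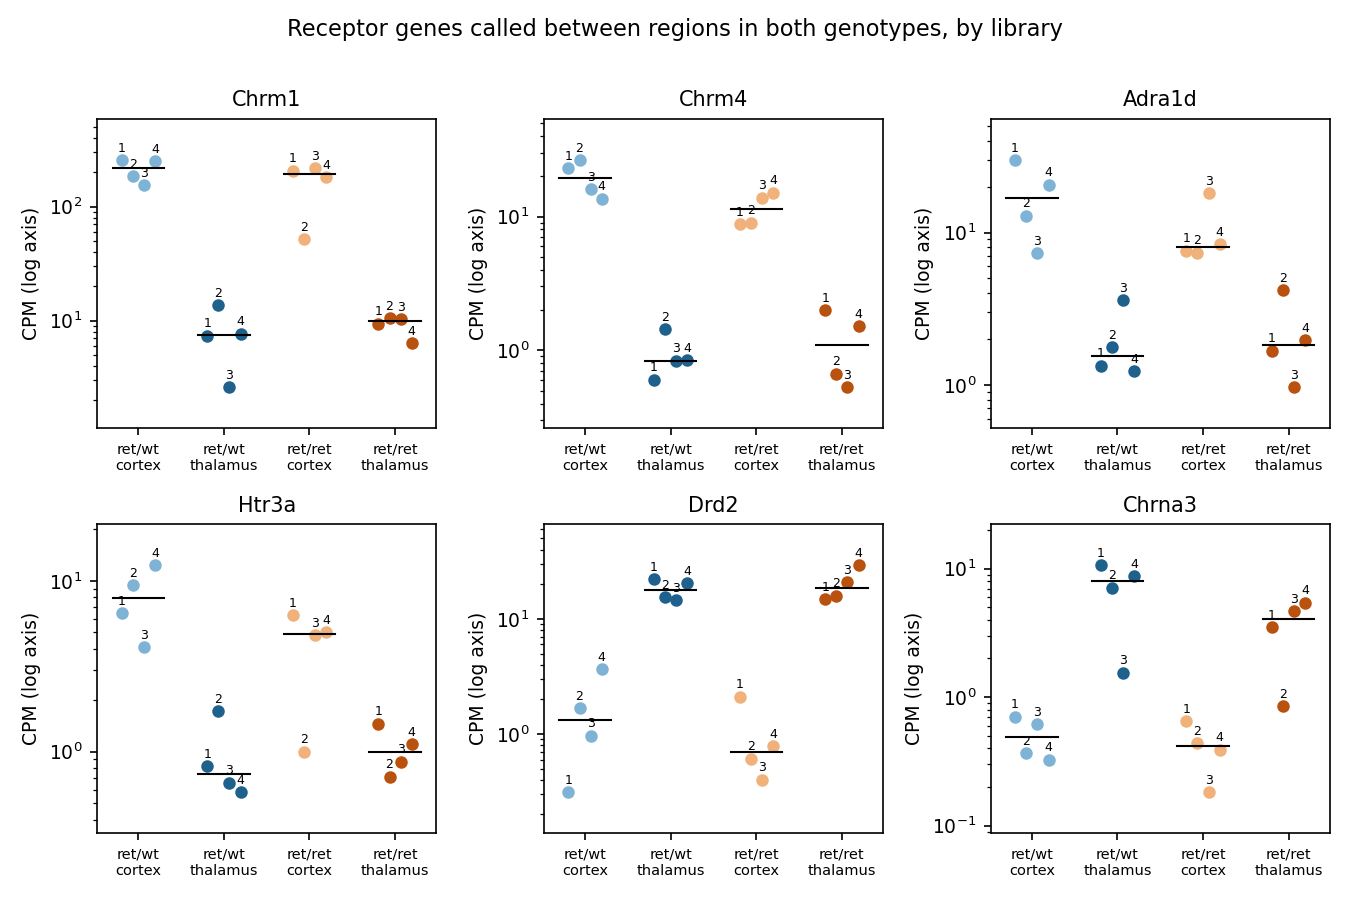
Level in CPM (vertical log axis) of the 6 receptors called in both genotypes, in each of the 4 groups (horizontal axis); points are libraries, numbered by replicate, and the black line is the median. Htr3a of ret/ret cortex 2, at 1 CPM, is the one cortex point of the 6 genes that falls among its genotype's thalamus points.

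Among nicotinic subunits, Chrna3 was the one called in both genotypes. Its product is an alpha subunit best known from autonomic ganglia and the habenula, and the gene lies on chromosome 9 from 55010111 to 55026562 (minus strand). It was at 0.706, 0.365, 0.615 and 0.326 CPM in ret/wt cortex and at 10.7, 7.10, 1.55 and 8.79 CPM in ret/wt thalamus. In ret/ret, cortex had 0.653, 0.436, 0.183 and 0.391 CPM and thalamus 3.50, 0.849, 4.66 and 5.43 CPM. The groups did not overlap, although the cortex levels amount to between 5 and 14 counts per library. The lowest thalamus values were those of ret/wt thalamus 3 and ret/ret thalamus 2, the libraries highest in thalamus neuron markers. Their summed habenula markers, 22.2 and 29.1 CPM, were the lowest in thalamus, against 47.4 to 74.4 in the other thalamus libraries. In cortex the same sum was 48.8 to 137 CPM, so it is not particular to the habenula. Of its 6 genes, 2 were called higher and 2 lower in ret/wt thalamus. Nwd2, for one, was at 47.6 to 87.6 CPM in ret/wt cortex and 4.25 to 21.1 in ret/wt thalamus. The genes also differed by library. Pou4f1 was lowest of its group in ret/wt thalamus 3 (4.72 CPM) and ret/ret thalamus 2 (0.402). Gpr151 was lowest in ret/wt thalamus 1 (0.432) and Nwd2 in ret/ret thalamus 3 (9.02). The part of the habenula in the Chrna3 difference was not tested. The log2 difference was 3.80 ± 0.60 (adjusted p = 0.00271) in ret/wt and 3.14 ± 0.64 (adjusted p = 0.0179) in ret/ret, where it had an adjusted p of 0.0589 with the animal as a block.

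Chrna4 and Chrnb2 encode the subunits of the most common high-affinity nicotinic receptor of the brain, and both were higher in ret/wt thalamus. Chrna4 was at 47.5, 57.0, 39.9 and 35.6 CPM in ret/wt cortex and 96.8, 86.4, 196 and 117 CPM in ret/wt thalamus (1.48 ± 0.28, adjusted p = 0.00735). In ret/ret it was at 15.5, 13.7, 49.0 and 55.5 CPM in cortex and 61.7, 196, 87.6 and 89.8 CPM in thalamus. Those groups did not overlap either, but the difference of 1.71 ± 0.53 had an adjusted p of 0.073.

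Chrnb2 was at 65.1, 68.8, 66.4 and 74.3 CPM in ret/wt cortex and 95.9, 95.6, 159 and 105 CPM in ret/wt thalamus. The groups did not overlap, and the log2 difference of 0.74 ± 0.20 (adjusted p = 0.0383) was the smallest among the called receptors; it had an adjusted p of 0.0774 with the animal as a block. In ret/ret, at 59.8, 99.1, 64.8 and 68.4 CPM in cortex and 70.4, 193, 81.3 and 75.0 CPM in thalamus, the groups overlapped (0.52 ± 0.34, adjusted p = 0.354). The span of Chrnb2, introns included, overlaps that of the gene Adar on the opposite strand over 7252 bases. Whether reads were counted by strand is not given in the sources used here. Reads from any transcript sequence that the pair shares can therefore not be told apart. The highest thalamus values of Chrna4 and Chrnb2 were those of ret/wt thalamus 3 and ret/ret thalamus 2, the libraries highest in thalamus neuron markers, whose part in these differences was not tested.

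Chrna5, an accessory subunit found in some Chrna4 and Chrnb2 receptors, was lower in ret/wt thalamus. It was at 1.81, 3.43, 1.93 and 3.64 CPM in ret/wt cortex and 1.25, 0.721, 0.239 and 0.388 CPM in ret/wt thalamus, without overlap (-2.01 ± 0.54, adjusted p = 0.0347, and 0.0579 with the animal as a block). In ret/ret, cortex had 1.16, 1.61, 4.64 and 6.51 CPM and thalamus 0.443, 0.447, 0.824 and 13.3 CPM. A single library, thalamus 4, was above all cortex libraries while the other 3 were below them. With it the ret/ret difference was 0.11 ± 1.11 (adjusted p = 0.96), and without it -2.60 (adjusted p = 0.0836).

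Chrna6, a subunit typical of dopamine neurons, was called in ret/ret alone (4.13 ± 1.04, adjusted p = 0.0374; 2.20 ± 0.85, adjusted p = 0.125 in ret/wt), and the interaction did not pass (1.95 ± 1.37, unadjusted p = 0.176). It was at 2.88, 11.6, 4.07 and 47.7 CPM in ret/ret thalamus and at 0.0726, 0.654, 1.75 and 1.17 CPM in ret/ret cortex. The highest of these, thalamus 4, is the library with the highest dopamine neuron markers. The other nicotinic genes, Chrna7, Chrnb1, Chrnb3 and Chrnb4, did not pass where tested, and Chrna2 was too low to be tested in either region comparison.

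Drd2, the Gi-coupled dopamine receptor that also serves as the autoreceptor of dopamine neurons, was among the strongest differences in the family. It lies on chromosome 9 from 49340627 to 49408177 (plus strand). Its levels were 0.314, 1.68, 0.967 and 3.64 CPM in ret/wt cortex and 22.1, 15.4, 14.6 and 20.5 CPM in ret/wt thalamus. In ret/ret, cortex had 2.11, 0.611, 0.402 and 0.781 CPM and thalamus 14.9, 15.9, 20.9 and 29.5 CPM. No cortex library reached the lowest thalamus library. The log2 difference was 3.45 ± 0.56 (adjusted p = 0.00321) in ret/wt and 4.44 ± 0.52 (adjusted p = 0.00297) in ret/ret, the largest rise of any receptor there.

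The Gs-coupled dopamine receptors did not follow Drd2 as a pair. Drd1 was at 6.04, 12.5, 17.8 and 20.4 CPM in ret/wt cortex and 6.17, 7.27, 3.47 and 3.29 CPM in ret/wt thalamus. The groups overlapped through cortex 1, and the fall of -1.48 ± 0.41 (adjusted p = 0.0388) had an adjusted p of 0.121 with the animal as a block. In ret/ret, with 14.7, 4.19, 13.3 and 11.5 CPM in cortex and 8.78, 1.65, 2.76 and 1.16 CPM in thalamus, the difference of -1.59 ± 0.65 did not pass (adjusted p = 0.152). Drd5 had differences above 0 in both genotypes that did not pass (1.84 ± 0.73, adjusted p = 0.132, and 1.91 ± 0.59, adjusted p = 0.0731); the ret/wt value passed with the animal as a block (adjusted p = 0.0404).

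Of the serotonin receptors, 2 were called higher and 4 lower in ret/wt thalamus, and 1 lower in ret/ret thalamus. Htr3a, the obligate subunit of the serotonin-gated channel and in cortex a marker of a class of interneurons, was lower in thalamus in both genotypes. The gene lies on chromosome 9 from 48899213 to 48911099 (minus strand). It was at 6.44, 9.43, 4.09 and 12.4 CPM in ret/wt cortex and 0.820, 1.72, 0.658 and 0.581 CPM in ret/wt thalamus, and at 6.32, 1, 4.82 and 5.01 CPM in ret/ret cortex and 1.46, 0.715, 0.873 and 1.11 CPM in ret/ret thalamus. The ret/wt groups did not overlap; in ret/ret, cortex 2 fell among the thalamus libraries. The log2 difference was -3.08 ± 0.48 (adjusted p = 0.00262) in ret/wt and -2.03 ± 0.55 (adjusted p = 0.0494) in ret/ret, where it had an adjusted p of 0.0604 with the animal as a block. The span of an antisense gene, Gm32335, overlaps that of Htr3a over 6770 bases, introns included. Reads from any transcript sequence that this pair shares cannot be told apart either.

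Htr1d, a Gi-coupled receptor known as a terminal autoreceptor, was higher in ret/wt thalamus. It was at 0.235, 0.585, 0.176 and 0.597 CPM in ret/wt cortex and 2.46, 2.11, 1.55 and 3.36 CPM in ret/wt thalamus, without overlap (2.58 ± 0.52, adjusted p = 0.00915). In ret/ret, cortex had 2.83, 0.523, 0.329 and 0.195 CPM and thalamus 7.71, 1.79, 1.21 and 8.60 CPM. Cortex 1 lay above the lower thalamus libraries, yet thalamus was higher in 4 of 4 mice (2.36 ± 0.94, adjusted p = 0.145). Htr7, Gs-coupled, was also called higher in ret/wt thalamus (1.014 ± 0.28, adjusted p = 0.0364, and 0.0785 with the animal as a block); in ret/ret its groups did not overlap, with a difference of 1.41 ± 0.40 and an adjusted p of 0.0537.

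Htr5a, Htr6 and Htr2a were called lower in ret/wt thalamus. Htr5a, a Gi-coupled receptor, was at 36.5, 30.03, 28.7 and 23.0 CPM in ret/wt cortex and 16.7, 15.8, 11.5 and 9.11 CPM in ret/wt thalamus (-1.14 ± 0.24, adjusted p = 0.0123). In ret/ret it was at 22.7, 15.1, 36.5 and 25.7 CPM in cortex and 8.29, 12.3, 14.5 and 15 CPM in thalamus (-0.99 ± 0.29, adjusted p = 0.0635). In neither genotype did its groups overlap, though ret/ret cortex 2 and thalamus 4 nearly met.

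Htr6, a Gs-coupled receptor, was at 2.43, 3.43, 1.27 and 3.20 CPM in ret/wt cortex and 0.993, 0.721, 0.359 and 0.646 CPM in ret/wt thalamus (-1.89 ± 0.47, adjusted p = 0.0245). In ret/ret, with 2.98, 0.654, 2.34 and 1.56 CPM in cortex and 0.665, 1.25, 0.727 and 1.16 CPM in thalamus, cortex 2 was the lowest of all 8 libraries and the difference did not pass (-0.97 ± 0.52, adjusted p = 0.265). Htr2a, the Gq-coupled receptor of cortical pyramidal neurons, differed by -1.13 ± 0.33 in ret/wt (adjusted p = 0.0462) and by -1.13 ± 0.38 in ret/ret (adjusted p = 0.0947). The remaining serotonin receptor genes, Htr1a, Htr1b, Htr2c, Htr4 and Htr5b, did not pass in either genotype.

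Of the adrenergic receptors, Adra1d was lower in thalamus in both genotypes. It is a Gq-coupled receptor for noradrenaline and lies on chromosome 2 from 131545850 to 131562283 (minus strand). It was at 29.98, 12.9, 7.30 and 20.6 CPM in ret/wt cortex and 1.34, 1.77, 3.59 and 1.23 CPM in ret/wt thalamus, and at 7.62, 7.37, 18.1 and 8.40 CPM in ret/ret cortex and 1.68, 4.20, 0.970 and 1.96 CPM in ret/ret thalamus. No groups overlapped, and the highest thalamus value of each genotype was again ret/wt thalamus 3 or ret/ret thalamus 2. The log2 difference was -3.15 ± 0.51 (adjusted p = 0.00294) in ret/wt and -2.23 ± 0.50 (adjusted p = 0.0246) in ret/ret, where it had an adjusted p of 0.0649 with the animal as a block. An antisense gene, Gm14285, overlaps it over 670 bases.

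Adra1a and Adra2a were called in ret/ret alone. Adra1a, also Gq-coupled, was at 8.86, 9.29, 15.6 and 8.40 CPM in ret/ret cortex and 3.50, 2.46, 6.21 and 3.52 CPM in ret/ret thalamus (-1.42 ± 0.35, adjusted p = 0.0338). Its ret/wt values, 17.6, 9.86, 10.6 and 9.45 CPM in cortex and 8.25, 8.60, 5.98 and 1.87 CPM in thalamus, did not overlap either, with a difference of -0.94 ± 0.43 that did not pass (adjusted p = 0.188). The interaction was -0.49 ± 0.57 (unadjusted p = 0.408), so a difference between genotypes was not shown.

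Adra2a, the Gi-coupled receptor that also restrains noradrenaline release, was at 17.7, 14.3, 8.87 and 16.6 CPM in ret/ret cortex and 40.3, 20.9, 29.1 and 54.0 CPM in ret/ret thalamus, without overlap (1.33 ± 0.32, adjusted p = 0.0336). In ret/wt, with 8.48, 23.6, 13.3 and 30.1 CPM in cortex and 29.8, 28.6, 17.4 and 28.0 CPM in thalamus, the groups overlapped (0.47 ± 0.37, adjusted p = 0.448). The interaction of 0.87 ± 0.52 did not pass at an unadjusted p of 0.112. Adra2c, related in coupling, had a ret/ret difference of -1.16 ± 0.32 with an adjusted p of 0.0512, and 0.0435 with the animal as a block. Adrb1, which is Gs-coupled, did not pass in either genotype, nor did Adrb3 in ret/ret; Adra2b and Adrb3 were too low to be tested in ret/wt.

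Of the histamine receptors, Hrh1 was called and Hrh2 and Hrh3 were not. Hrh1, the Gq-coupled receptor through which sedating antihistamines act, was at 21.9, 34.9, 33.1 and 20.1 CPM in ret/wt cortex and 12.9, 13.4, 9.93 and 14.8 CPM in ret/wt thalamus. These did not overlap (-1.09 ± 0.25, adjusted p = 0.0166, and 0.0532 with the animal as a block). In ret/ret it was at 16.7, 7.46, 21.3 and 30.2 CPM in cortex and 14.9, 17.3, 10.9 and 21.2 CPM in thalamus. Those groups overlapped widely (-0.23 ± 0.38, adjusted p = 0.745), and the interaction of 0.87 ± 0.47 did not pass (unadjusted p = 0.0835). Hrh2, Gs-coupled, and Hrh3, the Gi-coupled autoreceptor of histamine neurons, had differences between -0.26 and 0.07 in both genotypes.

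Among the 37 receptors tested in both genotypes, 35 had a region difference of the same sign, and across them the ret/wt and ret/ret differences had a Pearson r of 0.933; the genotypes share no libraries, but receptors are not independent replicates and this is a description. Receptor groups without overlap between regions numbered 17 of 38 in ret/wt (44.7%, against 19.9% of all genes) and 12 of 39 in ret/ret (30.8%, against 17.5%).

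Between genotypes no receptor was called. In thalamus, edgeR called 0 of 40 receptors (0% of all 14767 genes tested), and 0 had an unadjusted p under 0.05, as did 3.93% of all genes. DESeq2 (37 of all genes called) and limma-voom (0 of all genes) also called 0 receptors. The differences of ret/ret minus ret/wt ran from -0.93 to 2.54 on the log2 scale with a median of -0.04 (-0.02 over all genes), and 19 of 40 were above 0. Their median standard error of 0.47 sets the size that these 4 against 4 mice could resolve, and no call does not show that levels were alike. The smallest p was that of Chrna5 (2.54 ± 1.14, unadjusted p = 0.05003), which rests on the 13.3 CPM of ret/ret thalamus 4: without that library the difference was -0.165.

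In cortex, edgeR, DESeq2 and limma-voom called 0 of 34 receptors (0.021% of all 14288 genes tested by edgeR, 38 of them by DESeq2 and 2 by limma-voom). Chrm4 alone had an unadjusted p under 0.05, as did 3.77% of all genes. Its difference was -0.74 ± 0.28 (edgeR unadjusted p = 0.0238, adjusted p = 0.999). Its ret/ret cortex values of 8.79, 8.98, 13.8 and 15.1 CPM overlapped the ret/wt values of 23.1, 26.5, 16 and 13.6 CPM. Most receptors leaned the same way: 28 of 34 (82.4%) had a difference below 0, against 48.1% of all genes, with a median of -0.38 (0.01 over all genes). The receptors share the same 8 libraries and are not independent replicates, so this share is a description. The median was -0.15 without ret/ret cortex 2, -0.22 without ret/wt cortex 1 and -0.23 without ret/wt cortex 4, and at its lowest -0.51 without ret/ret cortex 3. Among cortex libraries ret/ret cortex 2 had the highest cerebellum and lowest projection neuron markers, whose part in the lean was not tested. No receptor's groups were without overlap in cortex or in thalamus, against 2.32% and 2.73% of all genes.

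**Figure D3:**
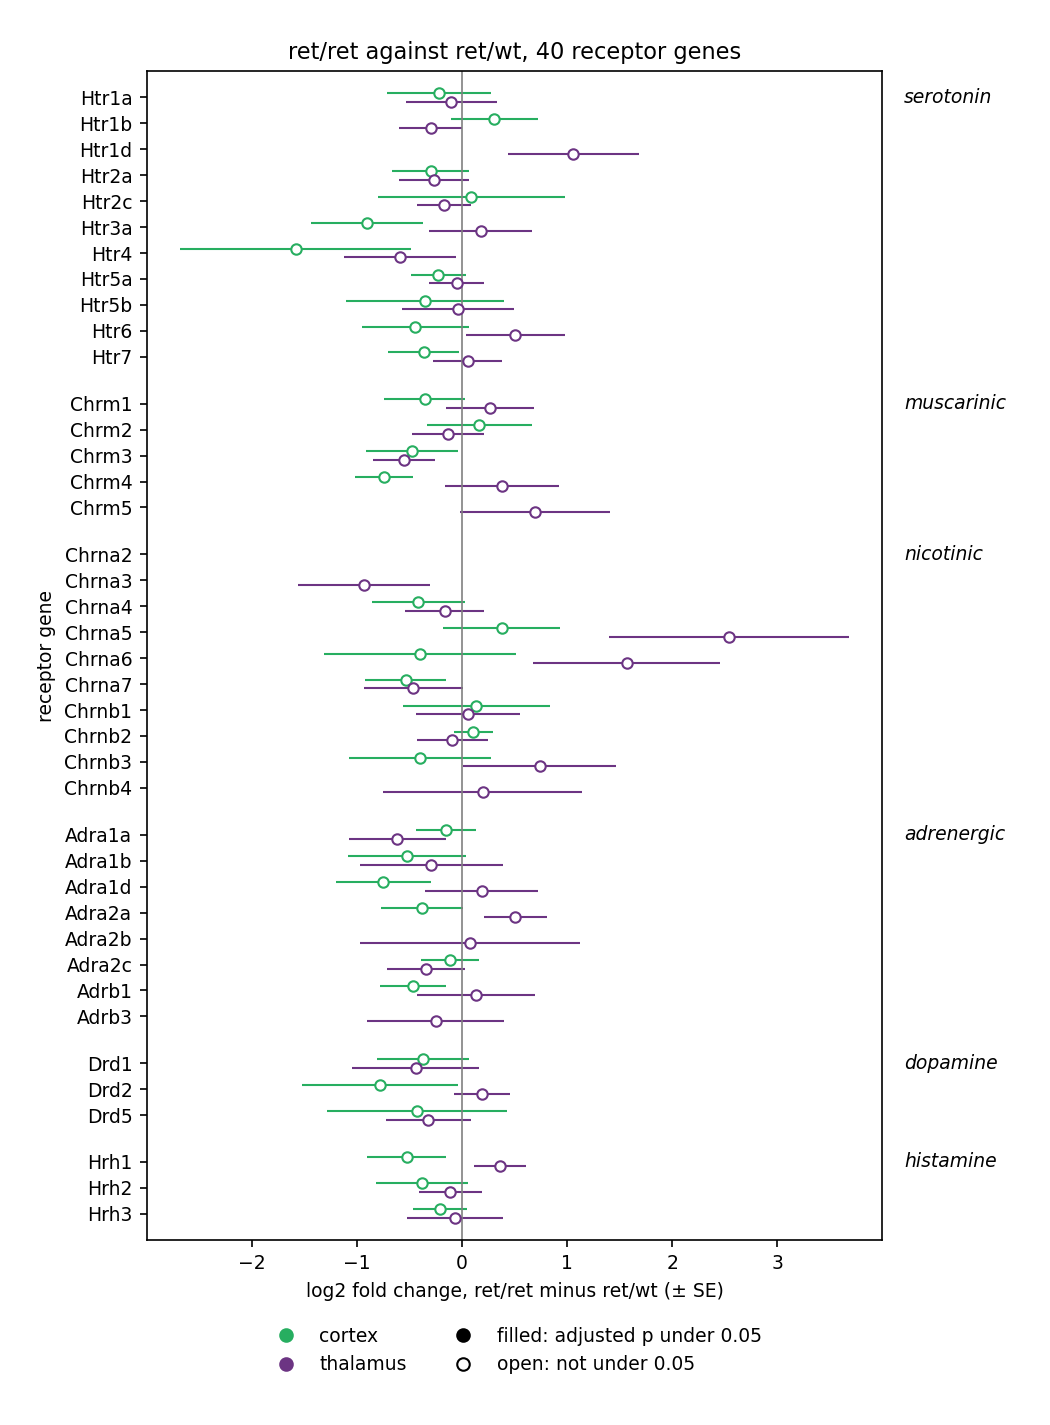
Pdgfb ret/ret minus ret/wt on the log2 scale (horizontal axis) for 40 receptor genes (vertical axis), in thalamus and in cortex, with 1 standard error as the bar; all points are open because none passed the adjusted p of 0.05, and a gene without a point was not tested. Cortex points lie mostly left of 0, with a median of -0.38, and thalamus points on both sides, with a median of -0.04.

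Whether a region difference differed between genotypes was tested in 1 model over all 16 libraries. edgeR called 0 of 41 receptors (0% of all 15286 genes tested), and 0 had an unadjusted p under 0.05 (1.6% of all genes). DESeq2 (4 of all genes called) and limma-voom (0 of all genes) called 0 receptors. With the animal as a block the count was 0 as well. The smallest p was that of Chrna2, a nicotinic alpha subunit (4.27 ± 2.04, unadjusted p = 0.0524), which was at 17.1 CPM in ret/ret thalamus 4 and at 0, 0.626 and 0 CPM in the other ret/ret thalamus libraries. That library held 340 counts of Chrna2, against a mean of 26.7 over the 16 libraries. Both this value and the gene's place among those kept therefore rest on 1 library. With the animal as a block the Chrna2 estimate was 0.61 ± 2.54. The next smallest p was that of Chrm4 (1.10 ± 0.56, unadjusted p = 0.0673), whose gap between cortex and thalamus was smaller in ret/ret by less than the test could call.

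Several receptors, named after their values were seen, were high in single libraries of a group. In ret/ret thalamus 4, the library with 1191 CPM of midbrain dopamine neuron and 197 CPM of raphe markers, Chrna6 was at 47.7 CPM and Chrnb3, another subunit typical of dopamine neurons, at 19.1 CPM, against at most 11.6 and 5.45 in the other ret/ret thalamus libraries. In ret/wt cortex 4, the library with high hippocampus and choroid plexus markers, Htr4 was at 14.8 CPM (0.879 to 1.02 in the other ret/wt cortex libraries), Htr2c at 91.6 (9.10 to 34.6), Drd5 at 5.65 (0.44 to 0.942) and Chrm5 at 3.85 (0.157 to 0.44). Htr2c is the serotonin receptor that choroid plexus epithelium is known for. The highest Htr2c level among cortex libraries was 103 CPM, in ret/ret cortex 1, where the choroid plexus markers summed to 39.4 CPM. In ret/wt thalamus 3 and ret/ret thalamus 2, highest in thalamus neuron markers, Adra1b was at 50.5 and 47.7 CPM and Adrb1 at 17.0 and 20.3 CPM. The other thalamus libraries had 6.21 to 15.4 CPM of Adra1b and 4.70 to 6.59 CPM of Adrb1. The part of the tissue piece in these values was not tested. Leaving out ret/wt cortex 3 and 4, ret/ret cortex 2 and ret/ret thalamus 4, a choice made after the data were seen, 12 receptors were called in ret/wt, 9 of them among the 17, and 7 in ret/ret, 4 of them among the 9. Of all genes, 1182 of 14920 were then called in ret/wt and 1251 of 14734 in ret/ret.

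**Figure D4:**
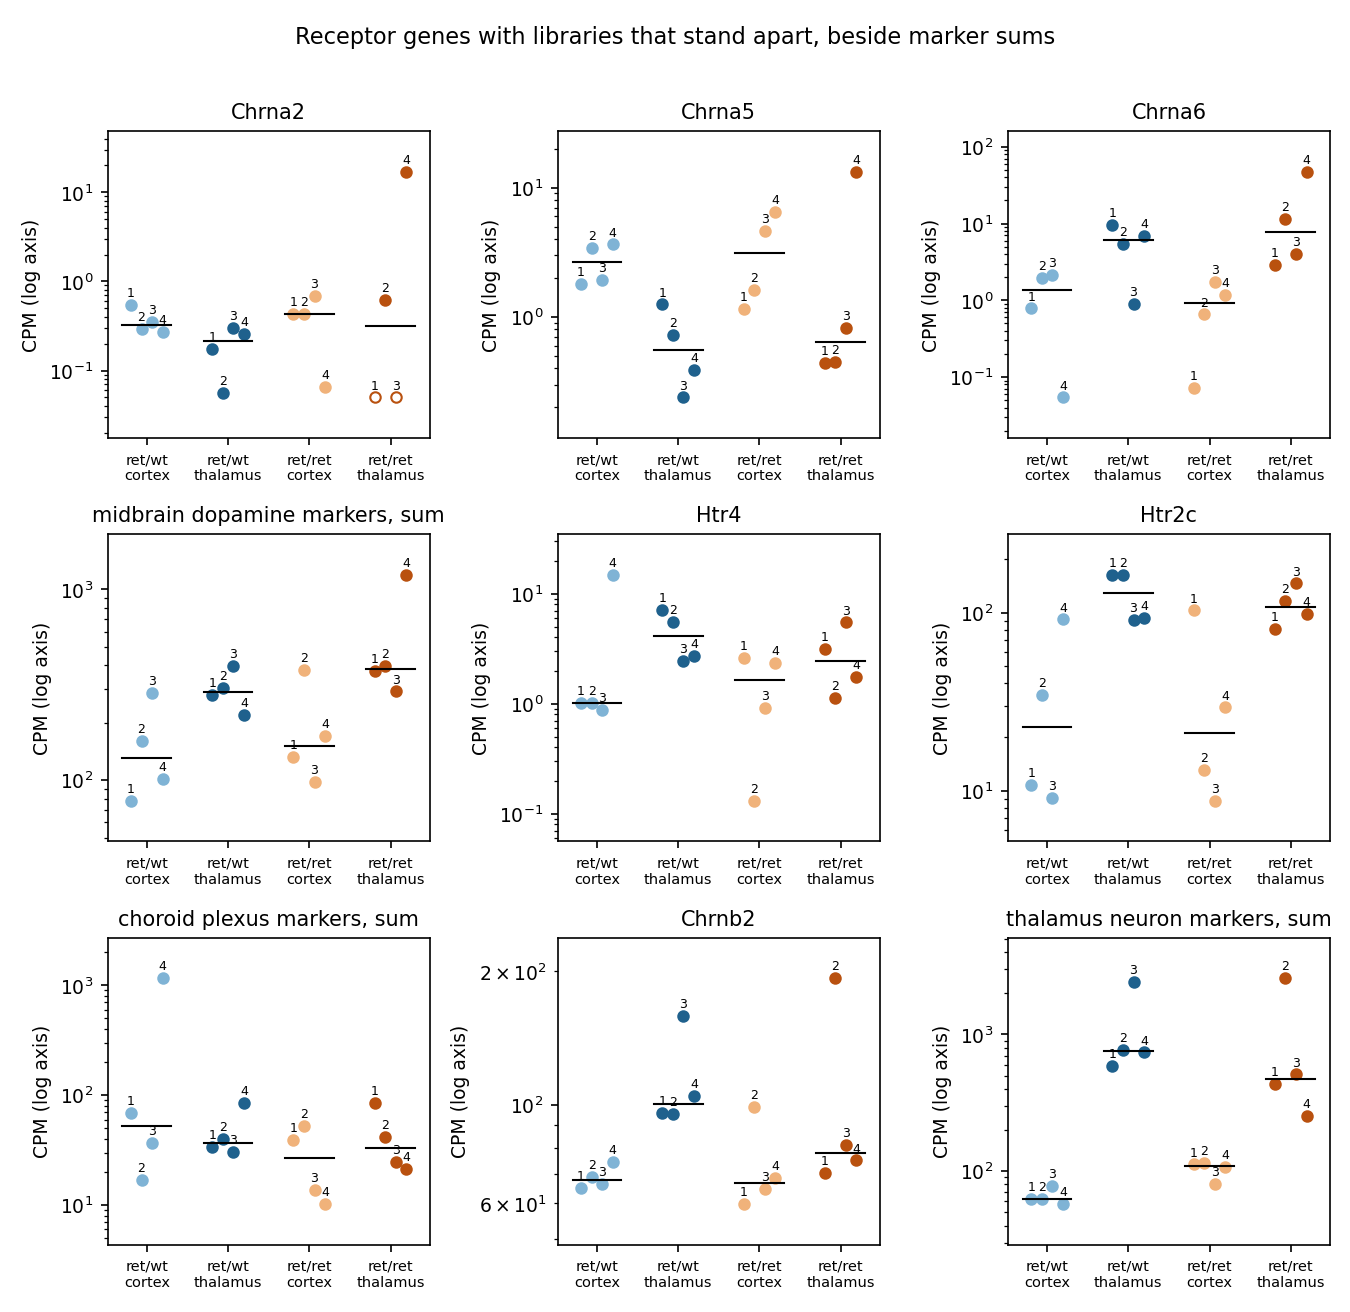
Level in CPM (vertical log axis) of 6 receptors that were high in single libraries, and the summed CPM of midbrain dopamine, choroid plexus and thalamus neuron markers, in each of the 4 groups (horizontal axis); points are libraries numbered by replicate, the black line is the median, and values of 0 are open points placed at 0.05. Chrna2 stands at 17.1 CPM in ret/ret thalamus 4 and Htr4 at 14.8 CPM in ret/wt cortex 4.

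The genes that make, clear and pass on these transmitters were examined as lists. Of genes for synthesis and packaging, 2 of 7 tested were higher in thalamus in each genotype (5.44% of all genes in ret/wt and 4.1% in ret/ret) and none lower: Th, the first enzyme of dopamine synthesis (2.31), and Ddc, the shared decarboxylase (2.35), in ret/wt, and Ddc (4.29) and Slc18a2, the vesicular monoamine transporter (7.94), in ret/ret, all as log2 differences. Ddc was at 22.5, 19.7, 11.1 and 20.2 CPM in ret/wt thalamus and at 12.6, 32.0, 18.8 and 142 CPM in ret/ret thalamus, the highest being thalamus 4. Slc18a2 was at 2.39, 19.8, 3.93 and 139.6 CPM in ret/ret thalamus and at most at 0.393 CPM in ret/ret cortex, near the level of 3 counts, where a fitted fold depends on the prior count. Of reuptake and breakdown genes, 3 of 10 were higher in ret/wt (the dopamine transporter Slc6a3 at 4.43, Maoa at 0.66 and the acetylcholinesterase gene Ache at 1.75) and 4 of 11 in ret/ret (Slc6a3 at 7.48, the serotonin transporter Slc6a4 at 6.52, Maob at 0.95 and Ache at 1.57), with none lower, against the same shares of all genes. In ret/ret thalamus 4, the library high in midbrain and raphe markers, Slc6a3 was at 234 CPM and Slc6a4 at 64.3 CPM. The other 3 ret/ret thalamus libraries had 5.53 to 63.0 and 1.68 to 2.86 CPM, and ret/ret cortex 0 to 1.74 and 0 to 0.508 CPM. Both genes, with Th, Ddc and Slc18a2, are also members of those marker lists. Ache was at 82.8 to 124 CPM in ret/wt and 105 to 128 in ret/ret thalamus, against 19.3 to 43.7 and 32.5 to 43.6 in cortex.

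Of G protein and second messenger genes, 5 of 18 were lower in ret/wt thalamus (7.12% of all genes) and none higher: Plcb1, the phospholipase that Gq proteins activate (-1.84), the G protein subunits Gnao1 (-1.0), Gnai1 (-0.61) and Gna11 (-0.64), and Ppp1r1b, a phosphatase inhibitor downstream of dopamine receptors (-0.93). In ret/ret, 3 of 18 were lower (5.4% of all genes), Plcb1 (-1.63), Gnao1 (-0.79) and Gnai1 (-0.71). Plcb1 was at 299 to 456 CPM in ret/wt cortex and 60.2 to 135 in ret/wt thalamus, and at 185 to 517 and 68.3 to 147 in ret/ret, with no overlap. The medians of this list were -0.61 in ret/wt and -0.45 in ret/ret. Of receptor chaperones and prototoxins, Ly6e alone was called, lower in ret/wt (-0.86), among 10 tested (7.12% of all genes were lower). Of receptor kinases, arrestins and RGS genes, Rgs16, which speeds the shut-off of G proteins, was called higher in ret/wt (2.70) among 13 tested (5.44% of all genes were higher). In ret/ret neither of these lists had a call. Rgs16 was at 14.4, 39.7, 146 and 91.7 CPM in ret/wt thalamus and 16.8, 172, 14.9 and 9.21 CPM in ret/ret thalamus. Its highest values were those of the libraries highest in thalamus neuron markers, whose part was not tested. Between genotypes and in the interaction edgeR called no gene of the 5 lists, and 10 of 61 had an unadjusted p under 0.05 in thalamus (3.93% of all genes), 2 of 55 in cortex (3.77%) and 3 of 63 in the interaction (1.6%); no other tool's calls were counted for these lists. The smallest of these p-values was that of Slc6a3 in thalamus (3.95 ± 1.22, unadjusted p = 0.0087), where ret/ret thalamus 4 was the highest library, at 234 CPM, against 1.42 to 63.0 in the other 7.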

How the data were processed

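RNA was sequenced from 16 brain pieces, 1 cortex and 1 thalamus piece from each of 8 mice; per the labels' protocols, libraries were poly(A)-enriched and stranded. The values are estimated counts per gene as deposited by the authors, not normalized; kallisto 0.44.0 and GRCm38.p6 are named in the submitters' processing notes, and how transcript estimates were summed to genes is not given in the sources used here. Of the nonzero values 100.0% are not whole, so counts were rounded. Samples were grouped by the genotype and region in the labels.

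Each comparison was fitted with edgeR 4.0.16 (R 4.3.3; filterByExpr, TMM, glmQLFit, glmQLFTest) on its own 8 libraries, and the genotype by region interaction on all 16, with Benjamini-Hochberg adjustment over all genes at 0.05. Library totals of 13415391 to 29135064 counts limit precision for genes of few counts, and this covers counting error only. A log2 difference is followed by its standard error, which was worked back from the test as the size of the difference divided by the square root of its F statistic. The script was tested on simulated data with planted log2 differences of 2, the same spread setting for every gene and no animal effect. In both region comparisons 100% of the planted differences were recovered. Of the calls made there, 8.45% in ret/wt and 8.37% in ret/ret were false, more than the threshold of 0.05 allows for. The simulated spread was a set value and not estimated from these data, so the recovery does not give the power for these receptors. In the real data some differences above 2 were not called by edgeR. Examples are Htr1d in ret/ret (2.36 ± 0.94, adjusted p = 0.145) and Chrna6 in ret/wt (2.20 ± 0.85, adjusted p = 0.125). Cortex and thalamus share an animal identifier in the labels, so the animal was also fitted as a block; residuals of the pairs correlated by -0.017 to 0.239. Values in every library are given for up to 4 called receptors per transmitter family with the smallest p in ret/wt; called receptors are all named. DESeq2 1.42.0, limma-voom 3.58.1, other scalings and filters, and fewer or more libraries were alternatives. The receptors and gene lists were chosen with earlier results of these data known. Promoters are from RefSeq (GRCm38.p6); gene coordinates are from GENCODE. Htr1f was not analysed here, and 1 kept gene is counted but its own values are not reported here.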

Additional observations from a re-analysis of the deposited data

Results flagged for a closer look

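For each of 40 receptors the 4 libraries of each group were examined for a single library far from the others by Dixon's test. Of 160 such sets, 22 had one. Chance gives about 1 in 20 for independent, normally distributed values. The test used CPM without a log, and the receptors share the same 16 libraries, so an excess over that rate is not established. Values are CPM, and the range of the other 3 libraries of the group is in parentheses.

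Thalamus libraries ret/ret 2 and ret/wt 3, both highest in thalamus neuron markers, account for 5 each. In ret/ret thalamus 2, Adra1b was at 47.7 (6.21 to 10.02), Adrb1 at 20.3 (4.70 to 5.94), Chrnb2 at 193 (70.4 to 81.3), Adra2b at 11.5 (0.503 to 1.82) and Hrh2 at 25.1 (11.2 to 12.2). In ret/wt thalamus 3, Adra1b was at 50.5 (12.2 to 15.4), Adrb1 at 17.0 (5.16 to 6.59) and Chrnb2 at 159 (95.6 to 105). In the same library Adra2a, at 17.4 (28.0 to 29.8), and Drd5, at 3.83 (7.62 to 8.29), were low. Adra1b, Adrb1 and Chrnb2 were thus high in both libraries, which come from different genotypes. The mice of both also gave the cortex libraries with high cerebellum markers, ret/wt cortex 3 and ret/ret cortex 2.

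In ret/wt cortex 4, the library with high hippocampus markers, Htr4 was at 14.8 (0.879 to 1.02), Drd5 at 5.65 (0.44 to 0.942) and Chrm5 at 3.85 (0.157 to 0.44). In ret/ret thalamus 4, the library with high midbrain and raphe markers, Chrna2 was at 17.1 (0 to 0.626) and Chrna5 at 13.3 (0.443 to 0.824). In ret/ret cortex 2, the library with the highest cerebellum markers, Htr7 was low at 5.10 (10.8 to 11.5).

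The other 6 were spread over libraries without such markers, apart from ret/wt cortex 3, which had high cerebellum markers and 7.61 CPM of Adra2c (14.8 to 16). Adra1a was high in ret/wt cortex 1 at 17.6 (9.45 to 10.6) and in ret/ret cortex 3 at 15.6 (8.40 to 9.29). Adra1d was at 18.1 in ret/ret cortex 3 (7.37 to 8.40), Htr1d at 2.83 in ret/ret cortex 1 (0.195 to 0.523) and Chrnb1 at 1.30 in ret/wt thalamus 1 (0.581 to 0.666). What part the tissue pieces had in these values was not tested.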

How the results depend on the processing

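Of the region calls, 7 of 17 in ret/wt (Chrm1, Chrm4, Chrm2, Chrna3, Drd2, Adra1d and Htr3a) and 3 of 9 in ret/ret (Chrm1, Chrm4 and Drd2) passed under all 19 alternatives run for each comparison. Leaving out each library in turn gave 10 to 17 calls in ret/wt and 3 to 11 in ret/ret. Over all genes the calls then ran from 1178 to 1797 in ret/wt and from 627 to 2007 in ret/ret. In ret/ret the count was also 18 with DESeq2 and 14 without animals ret/wt 3 and ret/ret 2, and in ret/wt it was 11 with all 16 libraries in the fit; the cause was not tested. DESeq2 called 2591 of all genes in ret/ret, against 1398. Without animals ret/wt 3 and ret/ret 2, 2564 of all genes were called in ret/ret. With all 16 libraries in the fit, 2113 of all genes were called in ret/wt, against 1813. With the replicate block 14 receptors were called in ret/wt, 12 of them among the 17, 9 in ret/ret, 6 of them among the 9, and 0 in the interaction; beyond those named in the report the block changed no receptor's call. Both genotype comparisons and the interaction had 0 calls under each alternative. Chrna5 changed direction: its genotype difference in thalamus was -0.165 without ret/ret thalamus 4 and ran from there to 3.06 when other libraries were left out. Its ret/ret region difference was -1.25 with limma-voom, -1.15 with the block, -2.81 without ret/ret cortex 2 and thalamus 4 (adjusted p = 0.048), -0.14 without cortex 1, -0.10 without cortex 2 and -2.60 without thalamus 4, with at most 0.59 (without cortex 4), against 0.11. That of Hrh1 was 0.084 without ret/ret cortex 4 and -0.474 without cortex 2. Upper-quartile scaling moved the median of all genes in ret/wt from 0.03 to 0.13, with 988 genes higher and 877 lower in place of 785 and 1028, and in ret/ret gave 819 and 662 in place of 603 and 795. Depth limits Chrna3, Chrna2 and other genes of few counts.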
